A study of Mus musculus with 6 samples.

Results

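The genes described here are 10 components of the circadian clock and its output: Dbp, Tef, Ciart, Per1, Per2, Nr1d1, Nr1d2, Arntl, Clock and Nfil3. They were taken by symbol from a table of 25491 genes, and all 10 were found and had enough counts to be tested. The set was chosen by measured values of the same contrast, since Dbp counts were higher in every Lama4-/- library, so the genotype differences of these 10 genes are a description and carry no test. The RNA came from mesenchymal progenitor cells sorted from mouse bone marrow as CD45-, TER119-, CD31-, CD44-, SCA1- and CD51+. The 3 wild type and 3 Lama4-/- libraries were from C57BL/6J mice aged 14 weeks that had all received a sublethal 7 Gy of radiation 6 weeks earlier. Lama4-/- mice lack the laminin alpha 4 chain of basement membranes. The labels do not give the hour at which marrow was taken, and although the series design names 3 mice of each genotype, no label ties a library to its own animal, so the spread between libraries may be technical.

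The circadian clock is a transcriptional loop present in most cells. CLOCK and BMAL1, the product of Arntl, bind as a pair to E-box sequences and switch on the period genes, the REV-ERB genes Nr1d1 and Nr1d2, Ciart and the PAR bZIP factors Dbp and Tef. Period proteins and CIART then hold the pair in check, while the REV-ERB proteins repress Arntl, Clock and Nfil3 through a second element, the RORE, which the ROR receptors activate. DBP and TEF activate D-box sequences and NFIL3 represses them, so the clock reaches its output genes from opposite sides. Marrow stroma has a working clock, and release of blood stem cells from marrow is known to follow the time of day.

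Library totals ran from 6263830 to 15663957 counts, and the 10 genes had between 61 and 8927 counts in a library. Levels are given as CPM, the usual depth-scaled count, on library totals adjusted by TMM scaling. Lama4 was at 33.8 to 45.4 CPM in wild type and had 0 counts in each Lama4-/- library. All 11 stromal markers listed, such as Cxcl12, Lepr and Col1a1, were counted in both genotypes. Of these, 9 had a negative log2 fold change in Lama4-/-. At an unadjusted p under 0.05 in edgeR 5 were lower (Lepr, Pdgfra, Pdgfrb, Runx2 and Kitl, from -0.93 to -1.50), where 8.34% of all tested genes lay. After adjustment edgeR called 0 of the 11. The DESeq2 adjusted p was 0.0147 for Lepr, 0.0229 for Pdgfra, 0.00522 for Pdgfrb, 3.43e-04 for Runx2 and 0.0756 for Kitl. Itgav, which encodes the gate's CD51, was at 95.9 to 139 CPM in wild type and 44.5 to 73.0 CPM in Lama4-/-. Its adjusted p was 0.245 in edgeR and 0.0401 in DESeq2. Of the genes that the sort excluded, Ptprc reached at most 4.09 CPM and Pecam1 2.06 CPM, while Cd44 was counted at 53.2 to 152 CPM. Ly6a, which encodes SCA1, was counted in every library, at 8.64 to 16.3 CPM. Transcripts of other marrow cells were also counted. All 10 neutrophil and monocyte markers had a positive log2 fold change in Lama4-/-, with a summed level of 39.2 to 122 CPM in wild type and 130 to 756 CPM in Lama4-/-. All 10 erythroid markers did too, with sums of 287 to 1781 and 1440 to 3964 CPM. None of these 20 markers was at 0 in every library of a genotype. Elane, Mpo, Ltf, Csf1r and Klf1 had 0 counts in some libraries. Of the 20, 8 were higher at an unadjusted p under 0.05 in edgeR, where 4.45% of all tested genes lay. After adjustment edgeR called 0 of the 20 and DESeq2 5 (S100a8, S100a9, Lyz2, Camp and Hbb-bs), against 4.64% of all genes DESeq2 adjusted. The part of these markers in the values of the clock genes was not tested. In RNA of sorted cells, fewer cells of a type and less RNA per cell cannot be told apart.

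The groups stood apart for 5 of the 10 clock genes. Dbp, Ciart and Tef were higher in every Lama4-/- library than in every wild type library, as were 10.3% of all 14465 tested genes, and Nr1d2 and Clock were lower in every Lama4-/- library, as were 12%. By fitted fold change 4 of the 10 were higher in Lama4-/- (Dbp, Ciart, Tef and Nfil3), as were 48% of all tested genes. Since this contrast was used in choosing the genes, nothing is read from these shares or from the calls that follow. In the edgeR quasi-likelihood test 0 of the 10 had an adjusted p under 0.05, where 0.00691% of tested genes did, while an unadjusted p under 0.05 was found for 2 on the higher side, where 4.45% of tested genes lay, and 1 on the lower side, where 8.34% lay. DESeq2 placed 3 of the 10 under 0.05, Dbp, Ciart and Clock, against 4.64% of the genes it adjusted. The authors' deposited table, made from the same libraries and so no separate support, has the same 3 genes under 0.05, against 6.63% of its genes with an adjusted p. limma voom called 0 of all genes.

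**Figure D1:**
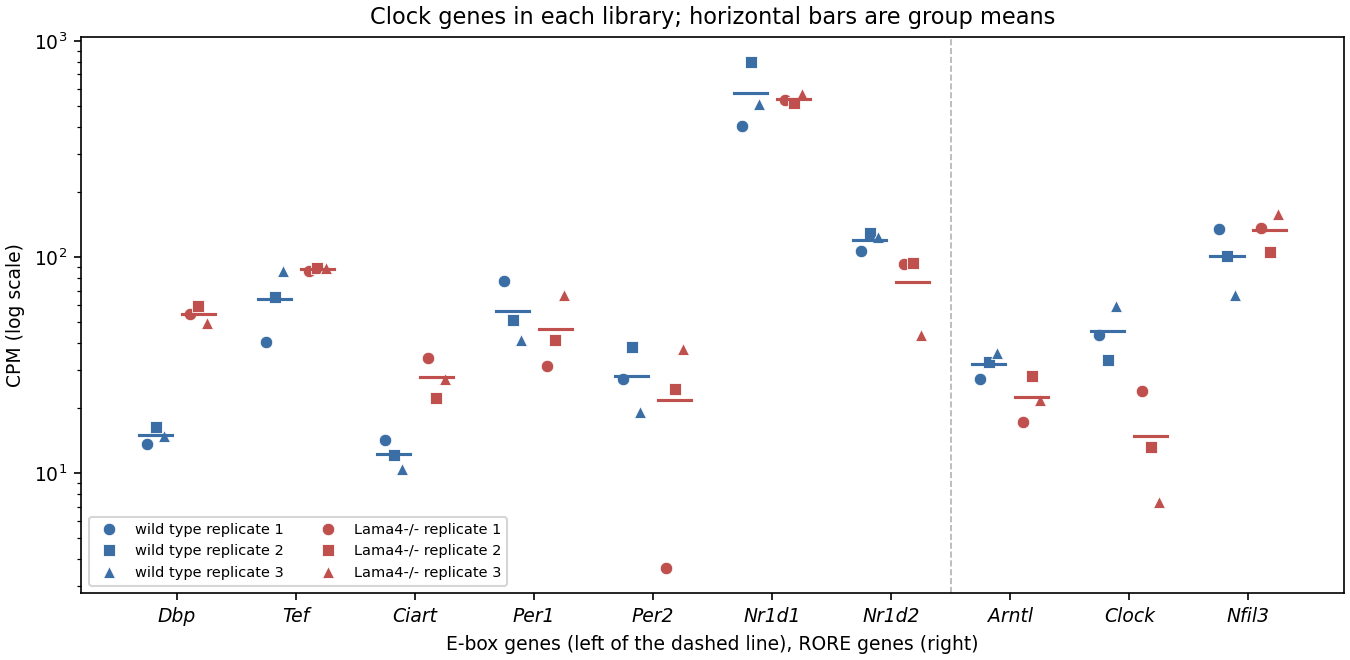
CPM on a log scale for each of the 10 clock genes, with 1 point per library, blue for wild type and red for Lama4-/-, and bars at the group means. Dbp sits between 13.6 and 16.4 CPM in wild type and between 49.7 and 59.1 CPM in Lama4-/-, while Nr1d1 has a mean of 571 and 541 CPM.

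Promoter sequence is shown for Ciart, Tef and Per1, whose windows hold the perfect E-box, and for Dbp, the gene with the widest separation. RefSeq windows from 250 bases before to 50 bases after a start (GRCm38.p6) were found for 9 of the 10 genes and not for Per2. The E-box CACGTG, which reads the same on both strands, lay in a window of 3 of the 9, and in 8.09% of the 27018 genes with a window. RORE letters TAGGTCA or TGGGTCA, on either strand, lay in a window of Arntl and Nfil3 and in 7.35% of genes. The D-box letters TTATGTAA or TTACGTAA, on either strand, were found in 0 of the 9 and in 1.23% of genes. Bases inside annotated exons were left out, and capitals mark the E-box. The Tef and Per1 stretches lie within the annotated gene, ahead of an internal start.
Ciart (chr3:95882252-95882478, minus strand): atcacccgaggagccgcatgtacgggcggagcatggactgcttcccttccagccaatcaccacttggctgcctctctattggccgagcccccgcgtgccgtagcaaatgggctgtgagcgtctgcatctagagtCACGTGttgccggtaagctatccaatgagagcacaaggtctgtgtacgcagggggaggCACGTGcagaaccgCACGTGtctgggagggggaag
Tef (chr15:81811164-81811413, plus strand): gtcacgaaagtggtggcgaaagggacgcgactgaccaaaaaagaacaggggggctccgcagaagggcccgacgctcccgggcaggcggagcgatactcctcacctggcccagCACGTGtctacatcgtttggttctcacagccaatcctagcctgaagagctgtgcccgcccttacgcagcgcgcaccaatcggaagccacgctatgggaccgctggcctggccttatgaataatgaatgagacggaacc
Per1 (chr11:69098699-69098947, plus strand): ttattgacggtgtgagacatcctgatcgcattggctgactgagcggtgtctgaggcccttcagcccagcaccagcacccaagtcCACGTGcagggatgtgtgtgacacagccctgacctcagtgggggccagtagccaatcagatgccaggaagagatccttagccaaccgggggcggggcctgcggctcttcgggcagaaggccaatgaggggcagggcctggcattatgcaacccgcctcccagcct
Dbp (chr7:45704997-45705087, plus strand): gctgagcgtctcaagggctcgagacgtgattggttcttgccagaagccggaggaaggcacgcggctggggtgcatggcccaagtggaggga
Ciart holds 3 E-boxes in this stretch, and Tef and Per1 hold 1 each. Dbp has none of these letters in its window.

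Among the PAR bZIP activators, Dbp (chromosome 7, 45705088 to 45710203, plus strand, GRCm38) had the widest separation of the 10 genes. It was counted at 13.6, 16.4 and 14.9 CPM in wild type replicates 1, 2 and 3 and at 54.8, 59.1 and 49.7 CPM in Lama4-/- replicates 1, 2 and 3. The lowest Lama4-/- library was 3.02 times the highest wild type library, and libraries of 1 genotype differed by at most 1.21 times. The mean was 14.98 ± 1.42 CPM (SD, n = 3) in wild type and 54.5 ± 4.73 CPM in Lama4-/-, a log2 fold change of 1.87 (SE 0.25). Leaving out each library in turn gave 1.80 to 1.94.

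Beside these Dbp values, the neutrophil and monocyte sum was 112, 39.2 and 122 CPM in wild type replicates 1, 2 and 3. It was 756, 692.5 and 130 CPM in Lama4-/- replicates 1, 2 and 3. The erythroid sum was 287, 674 and 1781 CPM in the same wild type libraries and 3557, 1440 and 3964 CPM in the same Lama4-/- libraries. For the neutrophil and monocyte sum, as for Dbp, every Lama4-/- library was above every wild type library. The erythroid sums overlapped, since Lama4-/- replicate 2 was below wild type replicate 3. Any part of these cells in the Dbp values was not tested.

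Dbp lies tail to tail with Sphk2, a sphingosine kinase gene on the other strand. Annotated exons of the pair share 539 bases, 18% of the exon sequence of Dbp, and the library kit does not mark strand, so reads there cannot be assigned. Sphk2 itself was at 19.97, 17.98 and 8.80 CPM in wild type and 19.8, 18.1 and 11.4 CPM in Lama4-/-, with overlapping groups.

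Tef (chromosome 15, 81802421 to 81826863, plus strand), the close relative of Dbp, was at 40.7, 65.1 and 85.8 CPM in wild type and at 86.6, 89.2 and 88.7 CPM in Lama4-/-. The Lama4-/- libraries lay within 1.03 times of each other, while the wild type libraries spread over 2.11 times. The groups were apart by only 1.01 times, since wild type replicate 3 nearly reached the Lama4-/- level. Its log2 fold change was 0.47 (SE 0.29) and went from 0.24 without wild type replicate 1 to 0.75 without wild type replicate 3. Nfil3 (chromosome 13, 52967209 to 52981073, minus strand), the repressor at the same D-box sites, was at 135, 101 and 67.1 CPM in wild type and 137, 105 and 159 CPM in Lama4-/-. Its groups overlapped, with a log2 fold change of 0.40 (SE 0.29) that went from 0.18 without wild type replicate 3 to 0.68 without wild type replicate 1.

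Ciart (chromosome 3, 95878503 to 95882251, minus strand), a repressor of CLOCK and BMAL1 with the 3 E-boxes shown above, was at 14.2, 12.2 and 10.4 CPM in wild type and at 34.03, 22.3 and 27.4 CPM in Lama4-/-. Every Lama4-/- library was at least 1.57 times every wild type library. The means were 12.3 ± 1.90 and 27.9 ± 5.87 CPM, a log2 fold change of 1.19 (SE 0.32), with 1.03 to 1.32 when each library was left out. The period genes, which also act on CLOCK and BMAL1, did not separate the genotypes. Per1 (chromosome 11, 69095217 to 69109960, plus strand) was at 77.3, 51.4 and 41.2 CPM in wild type and 31.3, 41.4 and 66.8 CPM in Lama4-/-. Its log2 fold change of -0.28 (SE 0.36) went from -0.64 without Lama4-/- replicate 3 to 0.03 without wild type replicate 1. Per2 (chromosome 1, 91415982 to 91459324, minus strand) was at 27.2, 38.4 and 19.1 CPM in wild type and 3.66, 24.6 and 37.5 CPM in Lama4-/-. The Per2 groups overlapped, and Lama4-/- replicate 1 was apart from the rest, with 61 counts. Among the Lama4-/- libraries Per2 varied 10.2 times, the widest spread of the 10 genes, and without replicate 1 its log2 fold change went from -0.36 (SE 0.73) to 0.16.

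Of the REV-ERB pair, Nr1d2 separated the genotypes and Nr1d1 did not. Nr1d1 (chromosome 11, 98767932 to 98775333, minus strand) was at 405, 799 and 510.2 CPM in wild type and at 536, 519 and 569 CPM in Lama4-/-. The Lama4-/- values all lay inside the wild type range, and the log2 fold change of -0.08 (SE 0.26) changed sign to 0.02 with upper-quartile scaling, 0.02 with limma voom and 0.24 without wild type replicate 2. Annotated exons of Nr1d1 share 263 bases, 8.55% of its exon sequence, with Thra, the thyroid hormone receptor alpha gene on the other strand. Thra was at 74.6, 42.3 and 65.04 CPM in wild type and 34.7, 41.97 and 35.2 CPM in Lama4-/-. Nr1d2 (chromosome 14, 18204054 to 18239127, minus strand) was at 107, 129 and 124 CPM in wild type and at 93.1, 93.6 and 43.4 CPM in Lama4-/-. All 3 Lama4-/- libraries were below wild type, replicate 3 the furthest. The log2 fold change was -0.64 (SE 0.31) and -0.36 without Lama4-/- replicate 3. The ratio of Nr1d1 to Nr1d2 counts was 3.78, 6.18 and 4.13 in wild type and 5.76, 5.54 and 13.1 in Lama4-/-, with overlapping groups.

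The activator pair was lower on average in Lama4-/-. Clock (chromosome 5, 76209868 to 76304792, minus strand) was at 43.8, 33.6 and 59.3 CPM in wild type and at 24.07, 13.2 and 7.33 CPM in Lama4-/-. The groups did not overlap, and the Lama4-/- libraries spread over 3.28 times. The means were 45.6 ± 12.97 and 14.9 ± 8.50 CPM, a log2 fold change of -1.62 (SE 0.47) that went from -1.29 without Lama4-/- replicate 3 to -2.14 without Lama4-/- replicate 1. Arntl (chromosome 7, 113207465 to 113314126, plus strand) was at 27.4, 32.5 and 35.95 CPM in wild type and 17.4, 28.2 and 21.9 CPM in Lama4-/-. Only Lama4-/- replicate 2 reached the wild type range, and the log2 fold change was -0.51 (SE 0.30).

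Ratios within a library do not depend on how libraries are scaled. The ratio of Dbp to Arntl counts was 0.497, 0.505 and 0.414 in wild type and 3.16, 2.10 and 2.27 in Lama4-/-. Relative to Nr1d1 counts Dbp was at 0.0336, 0.0206 and 0.0292 in wild type and 0.102, 0.114 and 0.0873 in Lama4-/-. Dbp stood higher in all 3 Lama4-/- libraries relative to both a RORE gene and an E-box gene. The set was chosen because Dbp counts were higher in these libraries, so the ratios describe that choice and give no separate support. The mean log2 CPM of the 7 E-box genes minus that of the 3 RORE genes (Arntl, Clock and Nfil3) was -0.14, 0.31 and -0.10 in wild type and 0.42, 0.97 and 1.22 in Lama4-/-. The group means differed by 0.84, and every Lama4-/- library was above every wild type library. The mean of the E-box genes was 5.72 in wild type and 5.96 in Lama4-/-, and that of the RORE genes 5.69 and 5.09. The gap was narrower without Clock. Then the values were -0.29, 0.05 and -0.01 in wild type and 0.08, 0.29 and 0.23 in Lama4-/-, a difference of 0.28. Without Dbp the difference was 0.57 and the groups overlapped, with 0.62 in wild type replicate 2 and 0.40 in Lama4-/- replicate 1. Clock and Dbp, the gene behind the choice of the set, thus each carried part of the gap. The balance without both was not computed, so the gap is not read as a shift of either arm as a whole.

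**Figure D2:**
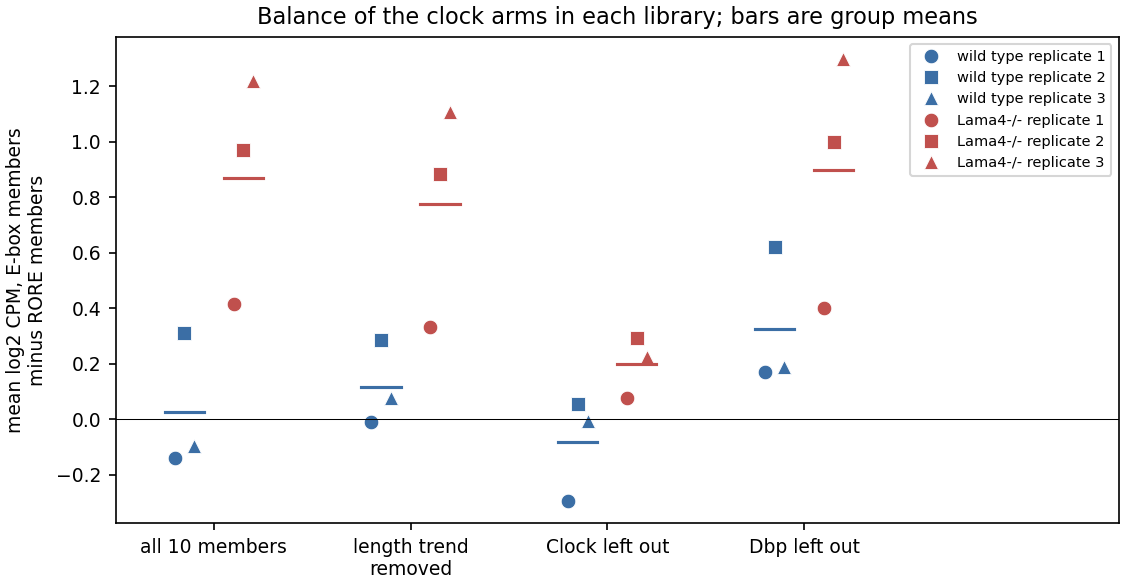
Mean log2 CPM of the 7 E-box genes minus that of the 3 RORE genes in each library, blue for wild type and red for Lama4-/-, with bars at group means, for all 10 genes, with the transcript length trend removed, without Clock and without Dbp. The difference between the means is 0.84, 0.66, 0.28 and 0.57 in that order.

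Per kilobase of the longest annotated transcript, Nr1d1 was the most abundant of the 10 genes in both genotypes, at 210.0 CPM per kilobase in wild type and 199 in Lama4-/-. Nfil3 followed at 49.8 and 65.9. In wild type Nr1d2 came next at 25.7, and these top 3 did not overlap each other over libraries. Below them Tef (14.5), Per1 (12.1), Dbp (8.16), Arntl (8.0), Ciart (6.32), Per2 (4.84) and Clock (4.68) each overlapped the next. In Lama4-/- Dbp came next at 29.7, clear of Tef at 20.02, and each later neighbour overlapped the next, from Nr1d2 (16.5), Ciart (14.4), Per1 (9.96), Arntl (5.62) and Per2 (3.76) down to Clock (1.52). Dbp thus had rank 6 in wild type and rank 3 in Lama4-/-, while Clock was last in both.

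Fold changes in these libraries moved with transcript length, and the clock genes differ widely in length, from 1837 bases for Dbp to 9744 for Clock. Dbp, Ciart (1939 bases) and Nfil3 (2026 bases) fall in a length decile of tested genes whose median log2 fold change was 0.27, with the middle 50% between -0.13 and 0.59. Dbp and Ciart lay above that range and Nfil3 inside it. Clock falls in the decile of the longest transcripts, with a median of -0.92 and the middle 50% between -1.45 and -0.42, and lay below that range. Tef, Per1 and Nr1d2 share a decile with a median of -0.38 and a middle 50% up to 0.11. Tef was above that range and the other two inside it. Of the 10 genes, 8 had the sign of their decile's median, and Tef and Nr1d1 did not.

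With the length trend removed from every library, the log2 fold change of Dbp was 1.61 (SE 0.24), that of Ciart 0.95 (SE 0.31) and that of Tef 0.79 (SE 0.28). Clock went from -1.62 to -0.55 (SE 0.41). Nr1d2 went to -0.27, Arntl to -0.29 and Nfil3 to 0.19, while Per1 at 0.11 and Per2 at 0.27 changed sign. Dbp and Ciart had the highest values of the 10 before and after, and the value of Clock moved the most. The balance of E-box over RORE genes was then -0.01, 0.28 and 0.08 in wild type and 0.33, 0.88 and 1.11 in Lama4-/-.

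**Figure D3:**
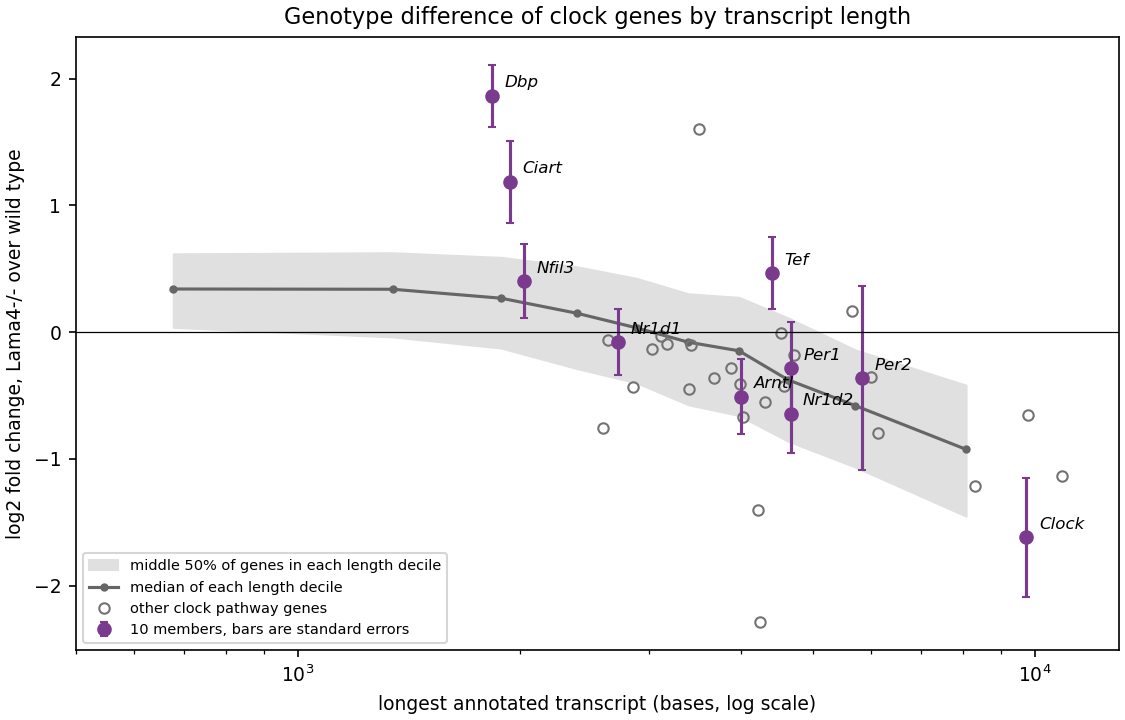
Log2 fold change of Lama4-/- over wild type against the longest annotated transcript in bases (log axis) for the 10 clock genes (purple, bars are standard errors) and 25 other clock pathway genes (open circles), over the median (line) and middle 50% (grey) of tested genes by length decile. Dbp at 1.87 and Ciart at 1.19 lie above the grey range and Clock at -1.62 below it.

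Another 28 genes of the pathway were listed as paralogs, kinases, ligases and outputs, of which 25 were tested. In the edgeR quasi-likelihood test 0 of the 25 had an adjusted p under 0.05. At an unadjusted p under 0.05 there were 0 on the higher side, where 4.45% of all tested genes lay, and 5 on the lower side, where 8.34% lay. DESeq2 called 1 of the 25, Rora, against 4.64% of all genes it adjusted, and limma voom called 0. A negative log2 fold change was found for 23 of the 25, and for 7523 of all 14465 tested genes. The median was -0.41, against -0.04 over all tested genes. With the length trend removed 18 of 25 were negative and 0 had an unadjusted p under 0.05. The median was then -0.13, against 0.02 over all tested genes.

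Rora, the ROR receptor that activates RORE genes, was at 178, 169 and 215 CPM in wild type and 84.5, 87.5 and 84.5 CPM in Lama4-/-. The groups were far apart, with an adjusted p of 0.237 in edgeR and 1.92e-05 in DESeq2. Its longest transcript has 10878 bases, and its log2 fold change went from -1.13 (SE 0.18) to -0.02 with the length trend removed. Bhlhe41, which encodes the E-box repressor DEC2, was at 43.2, 36.1 and 36.7 CPM in wild type and 17.8, 21.3 and 27.6 CPM in Lama4-/- (edgeR adjusted p = 0.315), with a log2 fold change of -0.80 as measured and -0.11 with the trend removed. Its paralog Bhlhe40 was at 695 to 1268 CPM in wild type and 874 to 1004 CPM in Lama4-/-. Npas2, which can stand in for CLOCK, was at 7.63, 21.2 and 19.1 CPM in wild type and 0.0600, 8.95 and 0.799 CPM in Lama4-/-. Only Lama4-/- replicate 2 overlapped wild type, and the log2 fold change of -2.29 had an SE of 1.34 and was -5.22 without Lama4-/- replicate 2.

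The cryptochromes, partners of the period proteins, overlapped between the genotypes. Cry1 was at 20.7 to 33.8 and 21.1 to 24.8 CPM and Cry2 at 87.1 to 134 and 25.7 to 114 CPM, wild type first. Per3 was at 8.73 to 22.1 and 2.40 to 20.1 CPM. Hlf, a further PAR bZIP gene, was low, at 0.694 to 7.70 and 1.38 to 8.94 CPM. Timeless, at 5.99 to 19.2 and 3.78 to 15.3 CPM, also overlapped, and Arntl2 and Rorb had too few counts to be tested. The kinase genes Csnk2a1 and Gsk3b had log2 fold changes of -1.40 (SE 0.60) and -1.21 (SE 0.40), and the ubiquitin ligase gene Fbxw11 -0.67 (SE 0.27). None of the 3 passed the adjustment in edgeR, with adjusted p of 0.390, 0.302 and 0.360. The most abundant turnover genes were Fbxw11, at 87.1 to 151 and 66.1 to 89.4 CPM, and Csnk1d, at 86.8 to 124 and 68.5 to 98.02 CPM. Of the output genes Por, at 60.7 to 125 and 49.5 to 106 CPM, and Nampt, at 47.95 to 58.0 and 34.9 to 72.5 CPM, were the most abundant and overlapped.

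**Figure D4:**
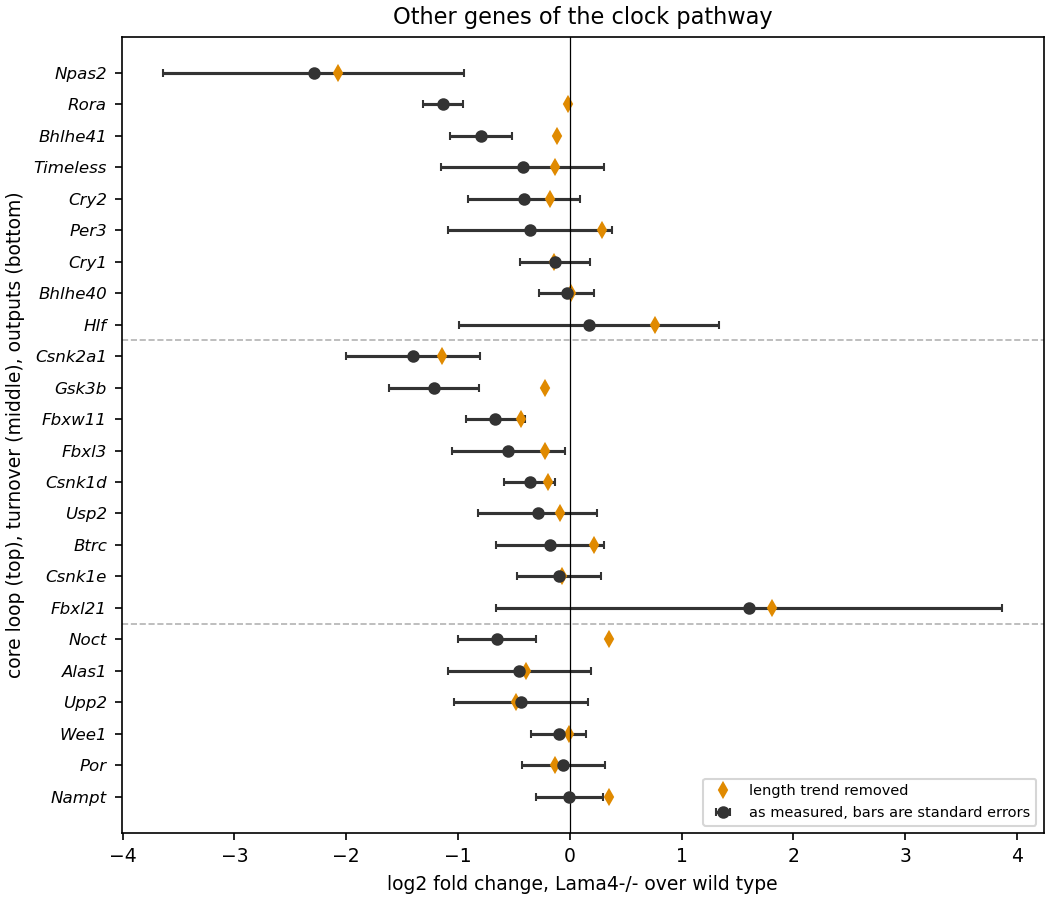
Log2 fold change of Lama4-/- over wild type for other tested clock pathway genes, all but 1 of the 25, as measured (black, bars are standard errors) and with the length trend removed (orange), grouped as core loop, turnover and outputs. Rora moves from -1.13 to -0.02 and Npas2 stays below 0, at -2.29 and -2.08.

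The 5 genes whose log2 CPM over the 6 libraries was most like that of Dbp, among 10083 with a mean of at least 5 CPM, were outside the clock, and 4 of them are given. Pearson's r was 0.994 for Srgn, the granule proteoglycan serglycin, 0.992 for Ppp1ca, a catalytic subunit of protein phosphatase PP1, 0.985 for Rhoc, a small GTPase, and 0.985 for Pwwp2b. These values are a description over 6 libraries, in which points share a library and a genotype, and 64 genes had an r over 0.95. Srgn was at 24.5, 25 and 23.6 CPM in wild type and 56.0, 54.3 and 47.6 CPM in Lama4-/-. Among the other E-box genes r with Dbp was 0.914 for Ciart, 0.679 for Tef, 0.036 for Nr1d1, -0.373 for Per2, -0.412 for Per1 and -0.627 for Nr1d2. Among the RORE genes it was 0.485 for Nfil3, -0.708 for Arntl and -0.830 for Clock. Both arms thus held positive and negative values.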

How the data were processed

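RNA of sorted marrow progenitors was amplified with the SMART-Seq v4 low-input kit and made into Nextera XT libraries read as 75 bp single ends, per the labels' protocols. The submitters' processing notes name STAR 2.6.1d, featureCounts, DESeq2 and GRCm38. The authors deposited 1 table in which the block headed normalized holds whole numbers and was used as raw counts. The block headed raw is a deposited signal, those counts times a constant per library, and was not tested. Per the file headers the other columns are the authors' DESeq2 Wald test: a mean signal, a shrunken log2 fold change with its error, a Wald score, a p-value and an adjusted p-value.

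Genes were filtered with filterByExpr (14465 kept), scaled by TMM and compared with the robust quasi-likelihood test of edgeR 4.0.16 in R 4.3.3, 3 libraries against 3, p-values being adjusted by Benjamini-Hochberg over those genes at a threshold of 0.05. Alternatives used DESeq2 1.42.0, limma 3.58.1 (voom), other scalings and filters, and each library left out. To remove the length trend, the log2 deviation of each gene from its mean over libraries was smoothed on log10 transcript length (lowess, span 0.3) and the curve given to edgeR as an offset. Log2 CPM used a prior count of 2. GENCODE M21 (GRCm38) gave positions and lengths for 25458 gene identifiers.

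The 10 clock genes, the lists and the alternatives were chosen with earlier results of these data known. All 10 are named, with all tested paralogs of the core loop, other pathway genes with an unadjusted p under 0.05 or among the 2 most abundant of their list, genes whose exons overlap Dbp or Nr1d1, and the 5 most like Dbp with a mean of at least 5 CPM. Of these, 2 genes are not reported here. Lists for lymphoid, endothelial, megakaryocyte, adipocyte and smooth muscle markers gave summed levels, wild type first, of 3.77 to 11.03 and 0 to 13.5 CPM, 7.36 to 10.03 and 0.120 to 2.32 CPM, 9.42 to 21.2 and 4.72 to 14.1 CPM, 407 to 985 and 502 to 872 CPM, and 77.6 to 112 and 19.2 to 158 CPM.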

Additional observations from a re-analysis of the deposited data

How the results depend on the processing

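In edgeR the number of genes with an adjusted p under 0.05 was 1, the deleted Lama4. Its adjusted p was 0.0497, although it had 0 counts in each Lama4-/- library, so a gene that edgeR did not call is not thereby unchanged. The number became 0 with upper-quartile scaling, 0 without robust moderation, 0 with the length trend removed, 0 with limma voom, 12 without a filter and 741 with DESeq2. It ranged from 0 to 1 with each library left out. Of the 25 other clock pathway genes tested, DESeq2 called 1, Rora, against 4.64% of all genes it adjusted, and edgeR called 0. The Dbp log2 fold change of 1.87 was 1.61 with the length trend removed and lay between 1.80 and 1.96 under every other setting run. Between 4 and 6 of the 10 clock genes were higher on average in Lama4-/-, with Dbp, Tef, Ciart and Nfil3 among them under each setting. The E-box over RORE balance differed by 0.84, by 0.28 without Clock and by 0.57 without Dbp. Replicate numbers are shared between the genotypes, and the labels do not say whether they pair the libraries. Same-numbered libraries deviated together with an r of 0.04, 0.13 and 0.05, each the highest for its library. Between differently numbered libraries of the 2 genotypes r ran from -0.0764 to 0.0075. Whether the numbers mark pairs was not tested. With the replicate number as a block 0 genes passed, Dbp was at 1.86 and Per2 at -0.80 from -0.36. Depth does not limit Dbp, with 96 counts or more per library. Values resting on a few counts, such as Npas2 with 1 count in Lama4-/- replicate 1, are limited by depth.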

Other observations

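Genes that answer to glucocorticoid hormone, a daily signal that also reaches the clock, were higher on average in Lama4-/- for 4 of 12, with a median log2 fold change of -0.24. In the edgeR quasi-likelihood test 0 of them had an adjusted p under 0.05, and an unadjusted p under 0.05 was found for 0 on the higher side and 1 on the lower, where 4.45% and 8.34% of all tested genes lay. The gene was Nr3c1, which encodes the glucocorticoid receptor, at 160.2, 112 and 176 CPM in wild type and 52.3, 65.4 and 66.4 CPM in Lama4-/- (edgeR adjusted p = 0.237, DESeq2 3.93e-04). On the log2 scale the difference was -1.29 as counted and -0.55 after the correction for length. The 2 most abundant, Sgk1 at 1275 to 2187 and 1448 to 1799 CPM and Errfi1 at 1598 to 2383 and 1242 to 1736 CPM, overlapped. Tsc22d3, which encodes the glucocorticoid-induced protein GILZ, was at 347, 349 and 321 CPM in wild type and 384, 506 and 399.6 CPM in Lama4-/-. It was higher in every Lama4-/- library, with a log2 fold change of 0.34 (SE 0.18). Pdk4, at 49.5, 60.6 and 42.4 against 23.5, 36.8 and 42.1 CPM, was lower in every Lama4-/- library, at -0.57 (SE 0.30). Both were added after their values were seen. Of the 12, the groups were apart for 1 on the higher side and 2 on the lower, where 10.3% and 12% of all tested genes lay.

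Immediate early and cAMP-responsive genes, some of which share inducers with Per1, had 4 of 11 positive and a median of -0.14. In edgeR 0 had an adjusted p under 0.05. Unadjusted p was under 0.05 for Atf3 and Ier2 on the higher side and Fosb, Egr2 and Sik1 on the lower, 2 and 3 of 11 where 4.45% and 8.34% of all tested genes lay. Fosb was at 936, 613 and 676 CPM in wild type and 346, 332 and 452 CPM in Lama4-/-. Sik1, a kinase gene induced by cAMP, was at 98.7, 101.7 and 83.6 against 44.8, 61.5 and 39.7 CPM. Atf3 was at 805, 871 and 748 against 1497, 980.4 and 1680 CPM. DESeq2 called these 3 of the 11, at an adjusted p of 0.00826, 0.0141 and 0.0459, against 4.64% of all genes it adjusted. With the length trend removed the log2 fold changes went from -0.98 to -0.81 for Fosb, -0.96 to -0.62 for Sik1, 0.78 to 0.56 for Atf3, 0.48 to 0.18 for Ier2 and -0.66 to -0.67 for Egr2. Fos, at 4426 to 6495 and 4671 to 5350 CPM, and Egr1, at 2682 to 5253 and 2565 to 3099 CPM, were the most abundant.

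Lama4-/- replicate 1 was the lowest of the 6 libraries for 17 of the 35 tested clock genes, among them Per1, Per2, Cry2, Npas2 and Usp2, and for 20.6% of all tested genes. Lama4-/- replicate 2 was the lowest for 0 of the 35 and for 9.71% of all. This count was made after the values were seen, and the hour of collection of each library is not given in the sources used here.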
